A study of Eublepharis macularius with 4 samples.

Results

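JCHAIN-rich cells of the leopard gecko jaw were selected on measured values. A cell was a member when it had at least 200 detected genes, at least 5 JCHAIN transcript counts (unique molecular identifiers, UMIs), under 10 UMIs of LOC129339097, under 5 UMIs summed over the collagen and matrix genes COL1A1, COL1A2, DCN and LUM, and under 5 UMIs summed over the complement genes C1QA, C1QB and C1QC. By this rule 206 of 8531 cells were members, and 8325 were not. A second class for comparison, called B-type cells here, had at least 2 UMIs summed over CD79A, PAX5, BANK1 and BLK and under 5 UMIs of JCHAIN, and held 1765 cells. Levels of the genes named in either rule are descriptions and were not tested in the comparison they defined.

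Plasma cells are the antibody-secreting end stage of the B lineage. In mammals they shut down much of the B cell programme under the factors BLIMP1 (PRDM1) and XBP1, expand the endoplasmic reticulum (ER), and devote a large part of their messenger RNA to immunoglobulin. JCHAIN encodes the joining chain that links immunoglobulin units into polymers, which the receptor PIGR carries across mucosal epithelium.

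The study profiled single cells from the soft tissue of adult Eublepharis macularius jaws, including unerupted teeth and dental lamina, with 10x Genomics 3′ chemistry after sorting of cells that excluded propidium iodide. For animal LG252, a warm digestion of 4 to 5 h at 37 °C combined collagenase D (1.5 U/ml) with dispase II (2.4 U/ml). For animal LG255, a cold digestion of 6 h at 4 °C used a protease of Bacillus licheniformis (10 mg/ml). Each animal gave 2 libraries named as biological replicates, without a statement of what separates them. The p-values therefore cover no spread between animals, and animal and digestion cannot be told apart. The gene fits below had 2, 1 and 2 residual degrees of freedom, and edgeR draws each gene's variance towards that of other genes. A very small p-value is thus no measure of how closely the libraries agree for that gene.

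Library sizes and composition differed. The 4 libraries held 723 to 4345 cells over the gene minimum, and LG252 replicate 1 held 1678 of the 1765 B-type cells. Pooled over libraries, members were deeper than other cells, with medians of 6092 and 3677 UMIs per cell. The shallowest member had 1820 UMIs against 502 in other cells. By library the medians were 6496 and 3147 in LG252 replicate 1 and 4989 and 4441 in LG252 replicate 2. They were 6122 and 5088.5 in LG255 replicate 1, and 5423.5 and 7745.5 in LG255 replicate 2, where members were shallower. The rule sets its JCHAIN minimum in UMIs, and whether that accounts for the difference in depth was not tested. No cell barcode of a member occurred in another library, while 30 barcodes were shared between pairs of libraries in all. Doublet calling marked 207 cells, of which 5 were members.

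Members were found in all 4 libraries. LG252 replicate 1 held 123 members, or 2.83% of its cells (exact Clopper-Pearson 95% interval 2.36 to 3.37%), and LG252 replicate 2 held 62, or 2.81% (2.16 to 3.59%). LG255 replicate 1 held 13, or 1.80% (0.961 to 3.06%), and LG255 replicate 2 held 8, or 0.637% (0.275 to 1.25%). These intervals cover counting error only. The shares did not overlap between the animals, at 2.82% ± 0.0153 in LG252 and 1.22% ± 0.821 in LG255 (SD, n = 2 libraries each), but the difference of 1.60 percentage points had an exact two-sided permutation p of 0.33, the smallest that 2 against 2 libraries can give. Counted against members plus B-type cells, the order turned: members were 6.83% and 42.5% of the combined cells from LG252, and 92.9% and 80.0% of those from LG255, whose libraries held 1 and 2 B-type cells.

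JCHAIN itself, on chromosome 10 (11553111 to 11561497, assembly MPM_Emac_v1.0), had a median of 11 UMIs per member and a range of 5 to 33. Summed over a class and scaled to 1000000 UMIs (CPM), members held 1600 and 1966 in LG252 and 2243 and 1758 in LG255. Among other cells 1.32% had any JCHAIN UMI, and members held 89.8% of all JCHAIN UMIs. By library this share was 92.4 and 86.5% in LG252 replicates 1 and 2, and 95.5 and 67.6% in LG255 replicates 1 and 2. Cells on either side of the threshold are described by a measure the rule did not use, the share of UMIs from antigen receptor loci taken up below. Its median was 40.1% in the 18 members with 5 JCHAIN UMIs, 36.3% in the 23 excluded cells with 4, and 30.8% in the 23 with 3. The order differed by library: in LG252 replicate 1 these medians were 19.1% (9 cells), 30.3% (10) and 28.5% (15), and in LG252 replicate 2 they were 45.2% (7 cells), 43.6% (8) and 38.1% (6). The other criteria removed 7 of 213 cells, 5 through LOC129339097 and 2 through the collagen and matrix genes. They removed 0 of 123 and 4 of 66 cells in LG252 replicates 1 and 2, and 0 of 13 and 3 of 11 in LG255 replicates 1 and 2.

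Receptor locus transcripts were the main other feature of the cells. The reference gene table labels 61 features as V_segment and 20 as C_region, the variable and constant parts of antigen receptors. They lie mostly in 2 stretches, on chromosome 12 (73288809 to 76458738) and on chromosome 13 (56096723 to 56870609). Counting every feature inside a stretch, the one on chromosome 13 gave 38.2% of all member UMIs, against 0.642% in B-type cells and 0.239% in other cells. The one on chromosome 12 gave 7.82%, against 0.205% and 0.0637%. The files name these features by locus number alone, so they are not assigned to a heavy or a light chain.

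Cell by cell, the share was summed over all stretches with such features, nearly all of it from these 2. It had medians of 44.1% and 54.1% in LG252 replicates 1 and 2, and of 53.0% and 51.0% in LG255 replicates 1 and 2. Over all members it ran from 4.87 to 78.6%, with 1 member under 5%. Of the 8325 other cells 8229 were under 5%, and the median of B-type cells was 0.446%. Every library median of members thus lay above 44%, in both animals and after both digestions.

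**Figure D1:**
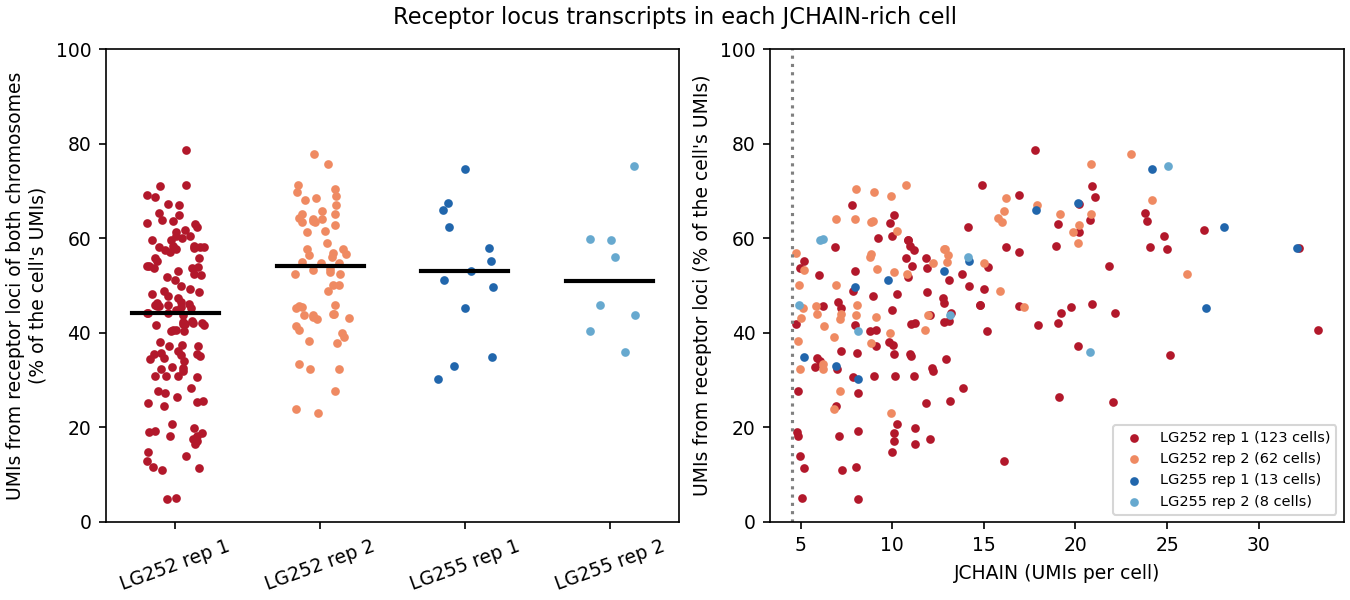
Share of each member's UMIs that came from antigen receptor loci, nearly all from chromosomes 12 and 13, by library with the median as a bar (left), and against its JCHAIN UMIs, spread slightly sideways, with a dotted line just below the minimum of 5 (right). The medians lie between 44.1 and 54.1%, and the low values are mostly in LG252 replicate 1.

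Single features dominated the loci. The 10 features taken up next were chosen for at least 300 UMIs in members and at least 10 times the level of other cells, so their levels are descriptions. LOC129338783, a C_region feature of chromosome 12 (75816476 to 75853629), had 41468 and 50083 CPM in members of LG252 and 64121 and 87475 CPM in LG255, against 112 to 298 CPM in other cells. LOC129341161, a V_segment feature of chromosome 13 (56755741 to 56827586), had 147675 and 194863 CPM in LG252 and 248236 and 197263 CPM in LG255, against 185 to 1291 CPM in other cells. In each library both were more than 100 times the level of other cells.

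Most members used 1 chromosome 12 feature. In the 201 members with at least 20 UMIs from those features, the leading feature took a median of 98.7% of them, and at least 90% in 165 cells. LOC129338783 led in 119 members, LOC129339983 in 36, LOC129339982 in 35 and LOC129339980 in 11. In the annotation LOC129339980, labelled protein_coding, spans LOC129338783, and on chromosome 13 LOC129341162 overlaps LOC129341161, so the division of reads within each pair is uncertain. On chromosome 13 LOC129341161 led in 144 members, LOC129340998 in 35, LOC129340999 in 23 and LOC129340997 in 4, and the leading feature took a median of 68.1%.

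Leading features of both stretches were also counted together. In LG252 replicate 1, LOC129340999 led the chromosome 13 stretch in 6 of the 63 members led by LOC129338783, in 4 of the 23 led by LOC129339982 and in 0 of the 30 led by LOC129339983. In LG252 replicate 2 the counts were 6 of 40, 4 of 11 and 0 of 6. LOC129340999 led 8.13% of all members in replicate 1 and 19.4% in replicate 2. These are counts of cells within libraries and were not tested. Of the V segments other than LOC129341161, 11 had at least 20 UMIs over all members, and for 7 of these a single cell held at least as many UMIs as all other members together.

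**Figure D2:**
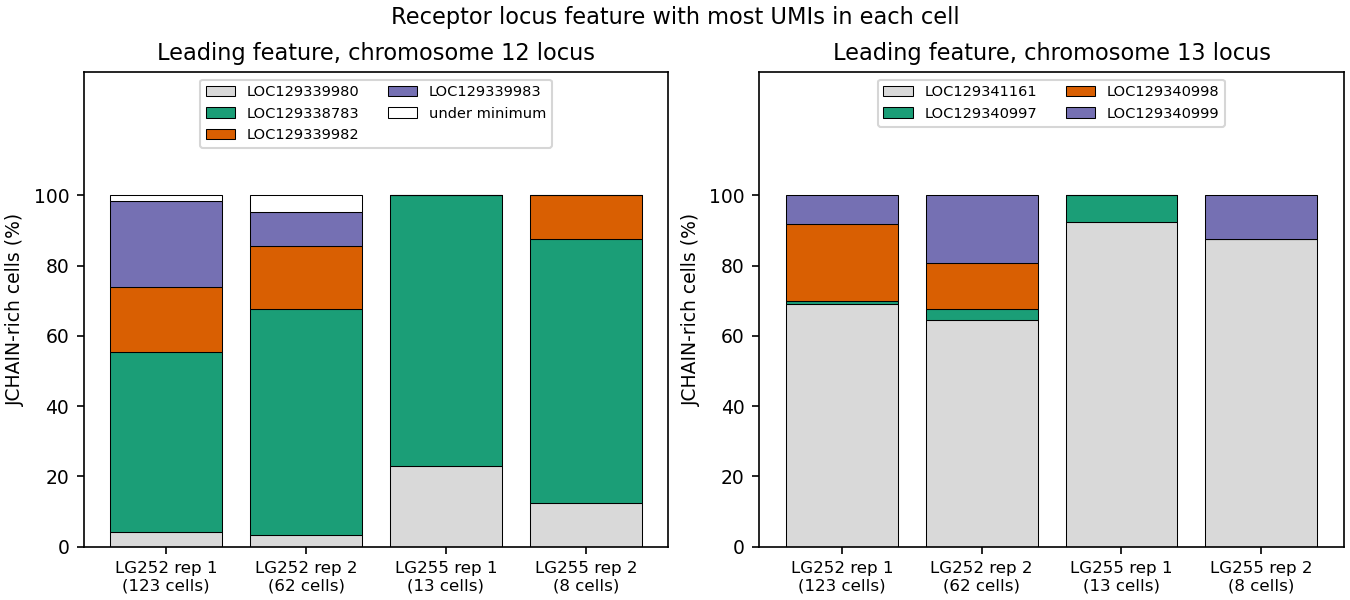
Members of each library (percent) by the receptor feature with the most UMIs, for the chromosome 12 stretch (left; cells with under 20 such UMIs are white) and the chromosome 13 stretch (right). LOC129338783 and LOC129341161 lead in most members of every library, and no LG255 member is led by LOC129339983.

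LOC129339983 led 30 of 123 and 6 of 62 members in LG252 and 0 of 13 and 0 of 8 in LG255, where a count of 0 of 13 has an exact upper bound of 24.7%. Its summed level was 20324 and 7406 CPM in LG252 and 73.4 and 359 CPM in LG255. In UMIs these are 20047, 2644, 7 and 20. The feature was taken up for its level in members, which LG252 sets, so no test between the animals is given for it. Receptor locus features were not taken out of the fit between the animals below.

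Members of LG252 led by different chromosome 12 features also differed in some of the other genes looked at. In LG252 replicate 1, PDIA4, an ER protein disulfide isomerase, was at 385 CPM (exact 95% counting interval 330 to 447) in 63 cells led by LOC129338783, 1696 CPM (1514 to 1894) in 23 led by LOC129339982 and 1509 CPM (1370 to 1658) in 30 led by LOC129339983. In LG252 replicate 2 the same classes held 354, 435 and 536 CPM, with overlapping intervals. LG255 members led by LOC129338783 held PDIA4 at 587 CPM (10 cells) and 832 CPM (6 cells). HSP90B1, another ER folding gene, was at 486, 1202 and 1648 CPM in these classes of LG252 replicate 1. In replicate 2 it was at 406, 661 and 1726 CPM, in the same order. CTSW, the papain-family protease cathepsin W, was at 742, 263 and 122 CPM in replicate 1 and at 630, 871 and 208 CPM in replicate 2. Cells led by LOC129339983 thus had the lowest CTSW level in both libraries, while the order of the other two classes turned. In replicate 2 that level rests on 7 UMIs in 6 cells (exact 95% counting interval 83.7 to 429 CPM). Cells of a library are not replicates, and no test was made.

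The label was then compared with plasma cell genes outside the rule. The lists were written with earlier results of these data known, so this is no independent check. Counts were summed per library and class and tested with edgeR's quasi-likelihood test with Benjamini-Hochberg adjustment, with library as a block, in the 3 libraries that held at least 10 members; LG255 replicate 2 with its 8 members is shown and not fitted. Against all other cells 14 listed identity genes were tested, of which 9 were higher and 1 was lower, with a median log2 fold change of 2.86. The identity list shares TXNDC5, FKBP11, SEC11C, SPCS2, LMAN1 and CREB3L2 with the lists of the secretory pathway below, so these counts are not separate. Over all 10462 genes tested, 18.0% were called at an adjusted p under 0.05 (1888 genes), 5.06% higher and 13.0% lower, with a median of -0.25; the count was 900 without LG252 replicate 1 and 613 without LG252 replicate 2. Against B-type cells, fitted on the 2 LG252 libraries, 8 of 11 were higher and 1 was lower, where 27.4% of 5356 genes were called, 13.9% higher and 13.5% lower. XBP1, PRDM1 and SDC1 did not pass the filter on low counts there and are not among the 11. The lower gene was ELL2 (log2 fold change -1.11, SE 0.35, edgeR adjusted p = 0.00936). Fitted fold changes exceed the ratios of the CPM values, since edgeR's TMM scaling factors were 0.590 to 0.863 in members and 1.34 to 1.36 in other cells. With DESeq2 size factors the median over all genes was -0.42.

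Canonical regulators were split. IRF4, a factor needed for plasma cell formation in mice, had 52.7 and 28 CPM in LG252 members and 10.5 and 17.9 in LG255, against 15, 2.72, 0.453 and 0.410 CPM in other cells. The LG255 values of members are 1 UMI each. The log2 fold change was 3.38 against other cells (SE 0.56, edgeR adjusted p = 5.85e-08) and 1.95 against B-type cells (SE 0.40, edgeR adjusted p = 1.52e-05). TENT5C, a poly(A) polymerase that stabilises immunoglobulin messages in mice, had 84.2, 86.8, 73.4 and 35.9 CPM in members against 17.9, 6.40, 0.680 and 0.513 CPM in other cells. Its log2 fold change was 4.45 against other cells (SE 0.50, edgeR adjusted p = 2.37e-16) and 2.1 against B-type cells (SE 0.35, edgeR adjusted p = 4.29e-08).

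Other defining genes did not show that pattern. XBP1 was scarce, with 7.1 and 5.60 CPM in LG252 members and no UMI in LG255 members, against 4.40, 3.28, 0.227 and 0.205 CPM in other cells, and was not called (log2 fold change 1.57, SE 0.86, edgeR adjusted p = 0.225). PRDM1 had 20.3, 14, 0 and 35.9 CPM in members and 18.7 to 69.8 CPM in other cells, and was not called either (log2 fold change -0.15, SE 0.54, edgeR adjusted p = 0.917). SDC1, the surface proteoglycan CD138, had 3.04 CPM in 1 library and none in 3, and was lower than in other cells, where it had 52.1 to 72.1 CPM (log2 fold change -3.96, SE 0.78, edgeR adjusted p = 1.19e-05). MZB1, TNFRSF17, DERL3, CD38 and SLAMF7 are not analysed here. The cells therefore carry part of the plasma cell marker set and are called by their leading gene.

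The list of plasma cell transcription factors had 13 genes tested against other cells, of which 5 were higher and 1 was lower, with a median log2 fold change of 1.47. Against B-type cells 2 of 8 were higher and 1 was lower, with a median of 0.26 beside -0.05 over all genes. POU2AF1, a coactivator of octamer factors in B lineage cells, was higher than in other cells (log2 fold change 3.63, SE 0.58, edgeR adjusted p = 1.57e-08) and was not called against B-type cells (0.75, SE 0.40, edgeR adjusted p = 0.154). PIM2, a survival kinase, had 3.41 (SE 0.46, edgeR adjusted p = 6.88e-12) and 0.63 (SE 0.27, edgeR adjusted p = 0.0739) in these comparisons.

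Many listed genes of the secretory pathway were higher in members than in other cells, where 5.06% of all genes tested were. Of 31 genes of the translocon, signal peptidase and oligosaccharyltransferase, which bring nascent chains into the ER, cleave the signal peptide and attach glycans, 21 were higher than in other cells and 0 were lower, with a median log2 fold change of 1.77. SSR4, a subunit of the translocon-associated complex, had 8720, 11470, 9361 and 4089 CPM in members against 3072, 2819, 1940 and 934 CPM in other cells of the same libraries. Each member value exceeded every value of other cells, and the log2 fold change was 2.78 (SE 0.41, edgeR adjusted p = 5.91e-10). SPCS2, a subunit of signal peptidase, had 597, 532, 860 and 395 CPM against 82 to 101 CPM, and its log2 fold change was 3.77 (SE 0.42, edgeR adjusted p = 5.11e-17).

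Of 28 ER folding genes 23 were higher and 0 were lower than in other cells, with a median of 2.33. PDIA4 had 982, 415, 692 and 664 CPM in members against 50.1 to 83.4 CPM, a log2 difference of 4.17 (SE 0.43, edgeR adjusted p = 6.91e-20). PRDX4, an ER peroxiredoxin, had 1197, 1025, 1730 and 1776 CPM against 151 to 209 CPM, a log2 difference of 3.57 (SE 0.41, edgeR adjusted p = 3.3e-16). FKBP11, a prolyl isomerase of the ER, had 1255, 1168, 954 and 1148 CPM against 147 to 206 CPM, a log2 difference of 3.48 (SE 0.41, edgeR adjusted p = 2.94e-15). All 3 had member values above every value of other cells.

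Transport between ER and Golgi followed, with 22 of 37 genes higher, 0 lower and a median of 1.46. KDELR3, a receptor that returns ER proteins from the Golgi, had 48.7, 115, 115 and 233 CPM in members against 6.12, 59.0, 7.93 and 19.8 CPM. Its ranges overlapped across libraries but not within one, and its log2 fold change was 3.34 (SE 0.47, edgeR adjusted p = 7.61e-11). The unfolded protein response and ER-associated degradation had 8 of 23 genes higher and 1 lower, with a median of 0.99. HERPUD1, which takes part in ER-associated degradation, had 215, 151, 220 and 161 CPM in members and 27.0 to 124 CPM in other cells (log2 fold change 2.33, SE 0.43, edgeR adjusted p = 1.94e-06). DDIT3, a stress-induced transcription factor, was the lower one (log2 fold change -1.27, SE 0.46, edgeR adjusted p = 0.034).

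The same lists were counted against B-type cells. There 26 of 30 translocon, signal peptidase and oligosaccharyltransferase genes were higher and 0 lower (median 2.09), 24 of 26 ER folding genes were higher and 0 lower (2.76), 28 of 35 ER to Golgi genes were higher and 1 was lower (1.68), and 8 of 17 unfolded protein response genes were higher and 0 lower (0.91). Amino acid supply genes had 7 of 10 higher and 1 lower against B-type cells (1.01) but 3 of 16 higher and 2 lower against all other cells (0.93). With DESeq2 in place of edgeR against B-type cells, 20 translocon, 20 ER folding, 14 ER to Golgi, 6 unfolded protein response and 1 amino acid supply genes were higher. With every cell thinned to 1000 UMIs, 16 of 16, 17 of 18, 5 of 6, 1 of 4 and 2 of 3 genes left for testing in those lists were higher. Counts in the comparison with other cells rest on the LG252 libraries: without LG252 replicate 1 or 2 the translocon list had 9 or 11 higher, the ER to Golgi list 11 or 10, the unfolded protein response list 4 or 3 and the amino acid supply list 1 or 1. In that comparison, with every cell thinned to 1000 UMIs, the ER folding list had 13 higher, the translocon list 11, the ER to Golgi list 7, the identity list 5 and the unfolded protein response list 0.

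**Figure D3:**
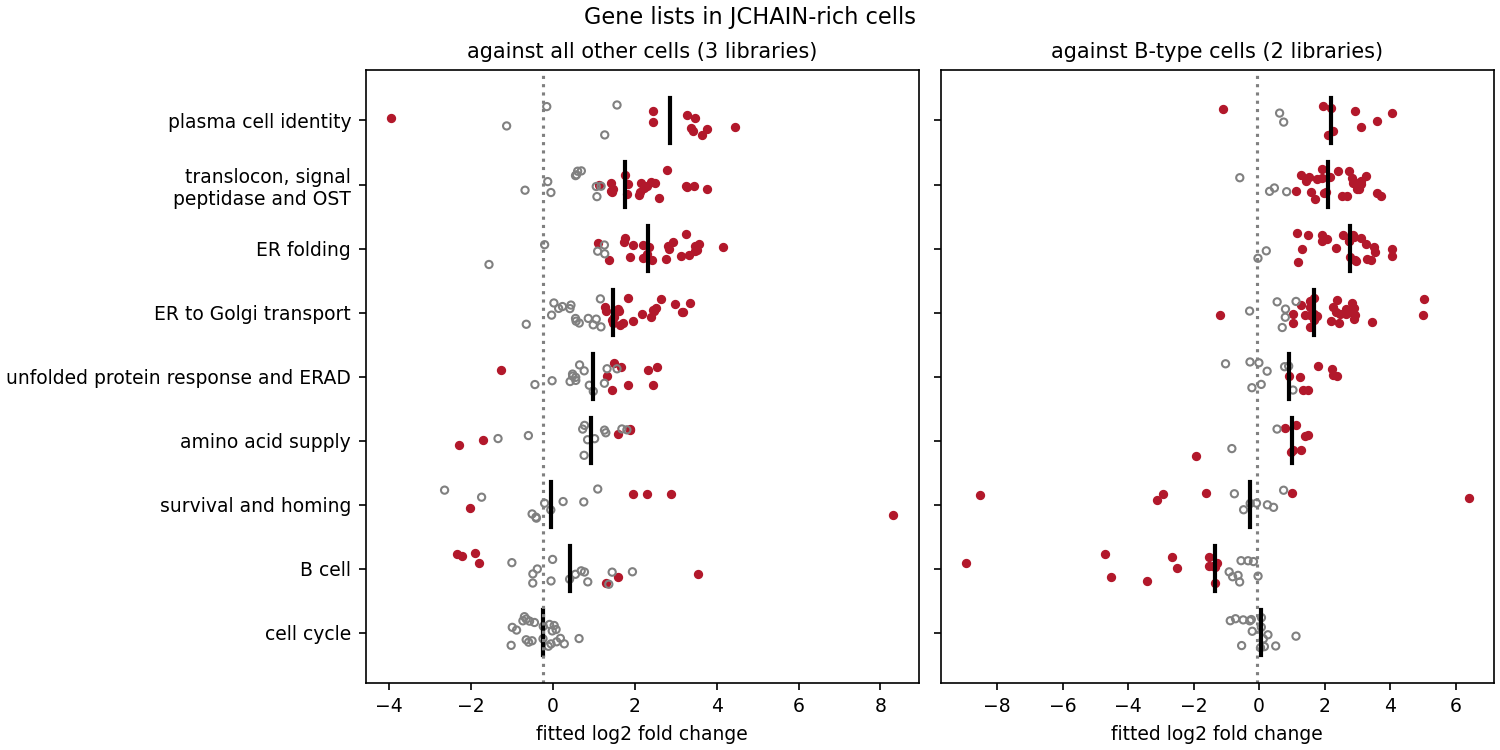
Fitted log2 fold changes of the tested genes of each list in members against all other cells (left, 3 libraries) and against B-type cells (right, 2 LG252 libraries); filled points passed an adjusted p under 0.05, open points did not, black bars are list medians and the dotted line is the median of all genes tested. The lists of secretion lie to the right of the dotted line in both comparisons, and no cell cycle gene is filled.

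The genes with the lowest p-values among those that were higher included several outside these lists. CCR10, the receptor for the mucosal chemokine CCL28 in mammals, had 151, 190, 262 and 269 CPM in members, 1.77, 0.80, 0.453 and 1.03 CPM in other cells, and 2.97 and 6.61 CPM in B-type cells of LG252. Member values were separate from all others in both animals. The log2 fold change was 8.32 against other cells (SE 0.56, edgeR adjusted p = 1.63e-46) and 6.40 against B-type cells (SE 0.43, edgeR adjusted p = 1.13e-45). A CCR10 UMI was found in 54.9% of members, 0.420% of other cells and 0.567% of B-type cells, at pooled median depths of 6092, 3677 and 3166 UMIs.

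CCL28 had 5.47, 14.1, 12.9 and 31.0 CPM in other cells, and in members a log2 fold change of -2.65 that was not called (SE 1.31, edgeR adjusted p = 0.161). PIGR, the epithelial receptor for polymeric immunoglobulin, had 2.03, 2.80, 0 and 0 CPM in members and 29.5, 23.4, 84.7 and 115 CPM in other cells, and was lower in members (log2 fold change -3.12, SE 0.80, edgeR adjusted p = 0.00116).

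CTSW, known in mammals from cytotoxic lymphocytes, had 448, 627, 241 and 305 CPM in members against 31.9, 9.68, 4.08 and 5.85 CPM in other cells, a log2 difference of 6.05 (SE 0.49, edgeR adjusted p = 5.85e-32). Of the T or NK marker list 2 genes could be tested against other cells, of which 0 were higher and 1 was lower, and 4 of 11 had no UMI in any member. SCG5, a secretory granule protein of neuroendocrine cells, had 309, 434, 262 and 377 CPM against 6.15 to 19.8 CPM (log2 fold change 5.2, SE 0.47, edgeR adjusted p = 8.24e-26). PLTP, a plasma phospholipid transfer protein, had 427, 566, 1090 and 1058 CPM against 46.0 to 88.8 CPM (log2 fold change 4.19, SE 0.43, edgeR adjusted p = 3.66e-20). None of these ranges overlapped.

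The remaining genes named by rule among those that were higher against other cells were RGCC, CRACD, SPATS2 and SPCS3, with log2 fold changes of 5.44, 4.57, 4.28 and 3.45. RGCC had no UMI in members of LG255 replicate 2, which was not fitted. Against B-type cells the rule named CTSW, CCR10, SCG5, PLTP and RGCC again, with ER genes FKBP11, SSR4, PRDX4, PPIB, SPCS2, PDIA4 and SELENOM. CTSW was at 11.6 CPM in B-type cells of LG252 replicate 1 and at 89.2 CPM in those of replicate 2, below the 448 and 627 CPM of members (log2 fold change 5.26, SE 0.33, edgeR adjusted p = 4.47e-53).

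**Figure D4:**
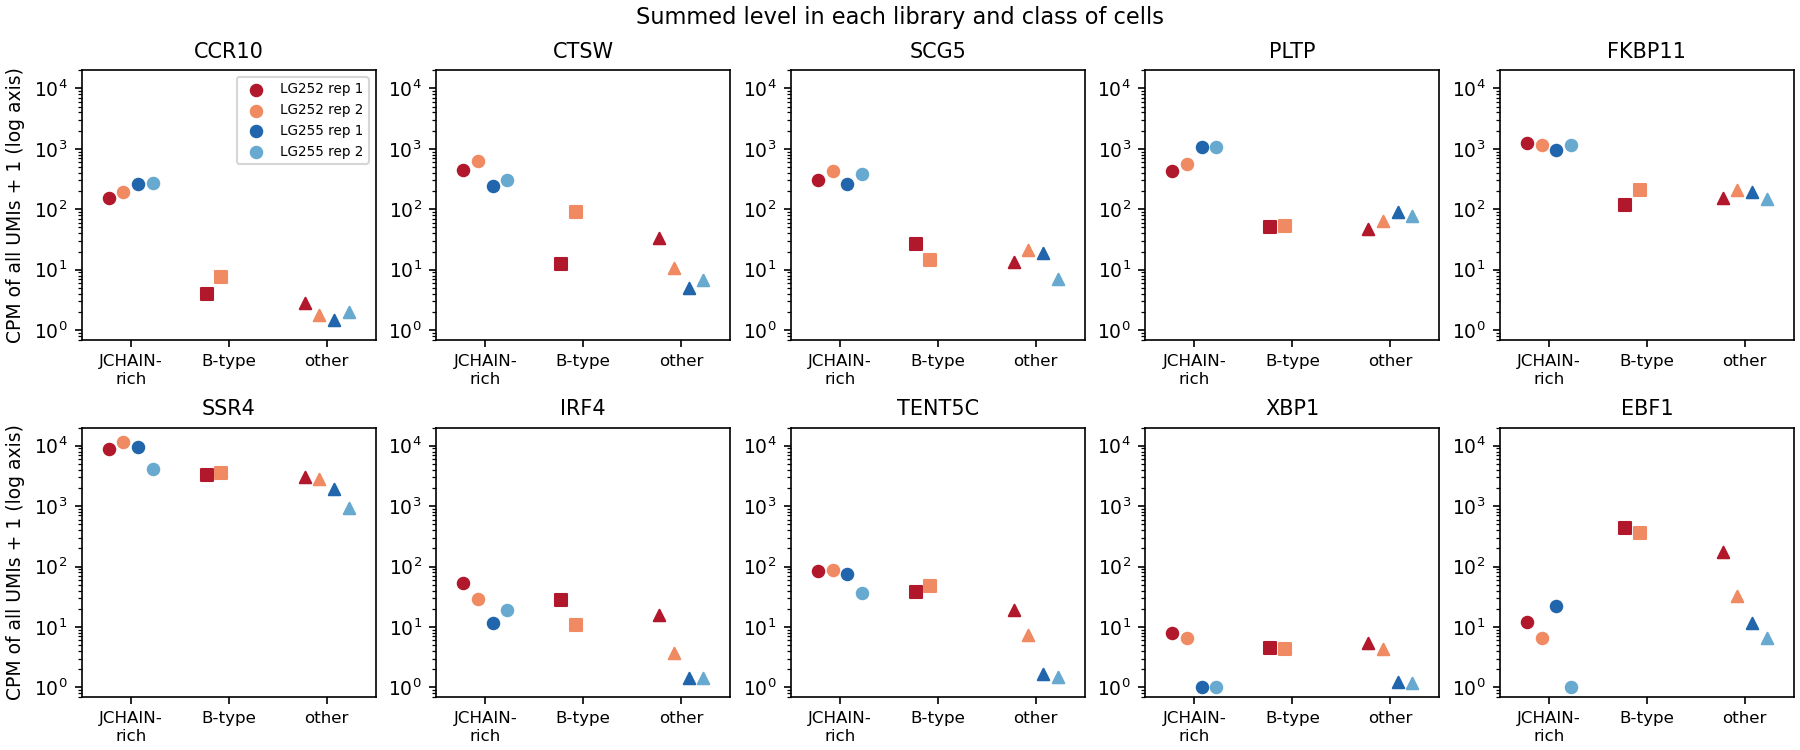
Summed level of 10 genes (CPM of all UMIs plus 1, log axis) in members, B-type cells (LG252 only) and all other cells, 1 point per library. CCR10, CTSW, SCG5, PLTP and FKBP11 are separate in members, XBP1 is low in all classes, and EBF1 is highest in B-type cells.

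Many B cell genes outside the B-type rule were lower in members than in B-type cells. The 2 classes were not cleanly separate: 73 of the 206 members also had at least 2 UMIs over CD79A, PAX5, BANK1 and BLK. In LG252 replicate 1 these were 53 of 123 members. Of the 1765 B-type cells 1742 had under 5% of their UMIs from receptor loci, and the highest share was 63.3%. Of 20 B cell genes tested 12 were lower and 0 were higher, with a median log2 fold change of -1.34 beside -0.05 over all genes. EBF1, a factor that specifies the B lineage, had 11.2 and 5.60 CPM in LG252 members against 438 and 357 CPM in B-type cells (log2 fold change -4.52, SE 0.43, edgeR adjusted p = 1.78e-23). SPIB, an ETS factor of B cells, had 21.3 and 0 CPM against 309 and 188 CPM (-3.43, SE 0.42, edgeR adjusted p = 2.34e-14). LYN, a B cell receptor kinase, had 25.3 and 28 CPM against 336 and 344 CPM (-2.67, SE 0.36, edgeR adjusted p = 9.86e-12). SPI1, the factor PU.1 related to SPIB, is on the macrophage list here and had 2.03 and 0 CPM against 88.1 and 85.9 CPM (-4.94, SE 0.67, edgeR adjusted p = 1.11e-11). The other lower genes named by rule were ADIRF, RBM38, TMEM131, BASP1, SLA, COTL1, REL and COL17A1. B-type cells held ADIRF at 230 and 869 CPM and the epithelial marker COL17A1 at 60.1 and 215 CPM, so that class also carried transcripts from outside the B lineage.

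Of the 20 B cell genes tested 8 were not called, which does not show equal levels. CD74, the invariant chain of antigen presentation, had 1001 and 353 CPM in LG252 members against 1984 and 1309 CPM in B-type cells, and was not called (log2 fold change -0.34, SE 0.23, edgeR adjusted p = 0.286). The TMM factors of this comparison were 0.826 and 0.551 in members and 1.46 and 1.51 in B-type cells. The fitted difference of CD74 is therefore smaller than its CPM values show. CD72 and ITGB7, an inhibitory B cell receptor and a homing integrin, had no UMI in LG252 members. In CPM they were at least 14.8-fold and 10.9-fold lower than in B-type cells, taking 3 counts over the group as the floor. These bounds leave out the TMM factors, which would make them smaller. CXCR4, a homing receptor for bone marrow and lymphoid tissue in mammals, had 104 and 36.4 CPM against 422 and 463 CPM (log2 fold change -1.61, SE 0.32, edgeR adjusted p = 6.67e-06). In the comparison with all other cells, which include the B-type cells, 3 of 21 B cell genes were higher and 4 were lower. The survival and homing list had 4 of 15 higher and 1 lower there, with a median of -0.05.

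Of the cell cycle list 0 of 23 genes were called against other cells with edgeR and 0 with DESeq2, 1 had an unadjusted p under 0.05, and the median was -0.24. The summed level of the list was 1231, 308, 157 and 197 CPM in members and 1422, 1813, 1433 and 1248 CPM in other cells, so that members were close to other cells in LG252 replicate 1 and lower in the other libraries. These levels are scaled to all UMIs, which in members include the receptor transcripts. Without LG252 replicate 1 the list had 4 of 23 genes lower. Of the heat shock list 0 of 16 were higher and 1 was lower there, and of the immediate early list 3 of 27 were higher and 4 were lower. The list of immunoglobulin transport and polymer partners had 2 of 4 tested genes higher and 1, PIGR, lower. MKI67, a marker of dividing cells, had a UMI in 11 of 206 members, or 5.34%, against 9.06% of other cells, pooled over libraries and at the pooled median depths given above. The libraries differed: among members led by LOC129338783 it had 29 UMIs in 63 cells of LG252 replicate 1. It had 0 in 40 cells of LG252 replicate 2 and 0 in 10 and 6 cells of LG255 replicates 1 and 2.

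Genes lower than in other cells were led by epithelial and connective tissue genes. ADIRF had 7.1, 42.0, 10.5 and 17.9 CPM in members against 1270 to 3832 CPM (log2 fold change -5.77, SE 0.50, edgeR adjusted p = 2.03e-27), and PERP, a desmosome-associated protein, had at most 10.5 CPM against 433 to 817 CPM (-5.26, SE 0.56, edgeR adjusted p = 1.24e-18). NFIX, a nuclear factor, had no UMI in any member. In CPM it was at least 75.6-fold lower, with 3 counts over members as the floor. That bound leaves out the TMM factors, which would make it smaller. COL3A1 and SPARC were also among the lower genes; the rule excludes cells rich in COL1A1, COL1A2, DCN and LUM, although only 2 cells were removed by it. The others named by rule were ANXA1, CSTA, SFN, DSP, COL17A1, S100A11 and APOC1.

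Markers of other cell types were at low summed levels. The mesenchymal sum includes COL1A1, COL1A2, DCN and LUM, and the macrophage sum includes C1QA, C1QB and C1QC. The rule caps these genes in members, so both sums are partly set by the selection, while the counts of tested genes leave them out. The epithelial list came to 21.0 to 93.3 CPM in members and 1065 to 2291 CPM in other cells, with 10 of 10 tested genes lower and 3 of 11 without a UMI in members. The mesenchymal list came to 0 to 89.6 CPM against 678 to 7177 CPM (5 of 5 lower), the secretory epithelial list to 0 to 3.04 against 127 to 177 CPM (4 of 4 lower), and the endothelial list to 0 to 9.12 against 40.0 to 219 CPM (1 of 4 lower). The T or NK list came to 0 to 19.3 CPM against 165 to 302 CPM. The macrophage list came to 36.4 to 81.1 CPM against 44.8 to 263 CPM with overlapping ranges; 3 of 5 tested genes were lower, and CTSS, a lysosomal protease also used by B cells, was higher, by 1.75 on the log2 scale (SE 0.48, edgeR adjusted p = 0.00313). Among mast cell and basophil markers 3 of 3 genes had no UMI in members.

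Members also showed fewer genes per UMI, counted over all UMIs with receptor transcripts included. With each cell thinned to 1000 UMIs, members had a median of 321, 288, 296 and 278 detected genes and other cells 485, 524, 490 and 456, of which 298, 179, 38 and 62 shallower cells were left out. Unthinned, the medians over all libraries were 1054 genes in members and 1186 in other cells.

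Members of LG252 and LG255 were compared over the 4 libraries, with 2 per animal and as few as 8 cells in one. Of 1246 genes tested 4.25% were called, 53 in all, with 2.57% higher in LG252 and 1.69% lower; 226 had an unadjusted p under 0.05. The count was 31 without LG255 replicate 1 and 89 without LG255 replicate 2. The genes tested include receptor locus features. With JCHAIN and receptor loci left out of the sums, 48 of 1123 genes were called, 27 higher in LG252 and 21 lower. Heat shock genes were the list with most calls. Of 17 in the files 10 passed the filter on low counts, and 5 of these were higher in LG252 and 0 were lower. HSPA2, an HSP70 family chaperone, had 9731 and 11052 CPM in LG252 and 241 and 89.7 CPM in LG255 (log2 fold change 5.76, SE 0.59, edgeR adjusted p = 0.000297). HSPA8, the constitutive member of that family in mammals, had 824 and 787 CPM against 10.5 and 53.8 CPM (4.71, SE 0.58, edgeR adjusted p = 0.00118). HSPB6, a small heat shock protein, had 4000 and 5624 CPM in LG252 and no UMI in LG255. In CPM it was at least 223-fold higher, with 3 counts over the LG255 libraries as the floor and without TMM factors.

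The other 2 heat shock genes were DNAJA4 and HSPH1. Of 20 immediate early genes 3 were higher in LG252 and 0 lower, JUND, IER5 and PPP1R15A. JUND, an AP-1 subunit, had 1775 and 2269 CPM against 21.0 and 17.9 CPM (log2 fold change 6.53, SE 0.58, edgeR adjusted p = 0.000255). PPP1R15A, which restores translation after stress, had 544 and 636 CPM against 62.9 and 53.8 CPM (3.17, SE 0.49, edgeR adjusted p = 0.0042). Other cells of the same libraries moved the same way in level, for example JUND at 1901 and 1381 CPM in LG252 and 18.6 and 11 CPM in LG255. Whether the size of the difference is particular to members was not tested. The rule also named ATP5MG, UBB, MTHFD2, NDUFAB1, LRPAP1 and ERP29 as higher in LG252, which lie outside the heat shock and immediate early lists. ATP5MG had 933 and 795 CPM against 31.4 and 35.9 CPM (log2 fold change 4.51, SE 0.46, edgeR adjusted p = 0.000297). NDUFAB1 and LRPAP1 had no UMI in LG255 members.

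Lower in LG252 were mitochondrial transcripts, 8 of the 14 mitochondrial features tested. CYTB, the cytochrome b gene, had 82.1 and 36.4 CPM in LG252 members and 807 and 682 CPM in LG255 (log2 fold change -3.87, SE 0.38, edgeR adjusted p = 0.000297). Other cells held 118 and 231 CPM against 2397 and 1462 CPM. The median mitochondrial share of a member's UMIs came to 0.635 and 0.673% for LG252 and to 1.98 and 2.12% for LG255, below the 0.804, 1.19, 4.92 and 3.81% of other cells in each library. These are shares of all UMIs, of which receptor loci gave medians of 44.1, 54.1, 53.0 and 51.0% in members. Whether members are also lower among the remaining UMIs was not tested. The remaining 13 of the 21 lower genes were not mitochondrial, and APOD, DAP and GALK2 were among those named by rule.

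The secretory lists had few calls between the animals. Of 22 ER folding genes that passed the filter 1, ERP29, was called, and 7 had an unadjusted p under 0.05. Further, 0 were called with edgeR or DESeq2 of 25 translocon, 17 ER to Golgi and 7 identity genes, of which 3, 0 and 0 had an unadjusted p under 0.05. CCR10 had a log2 fold change of -0.79 between the animals (SE 0.42, edgeR adjusted p = 0.363) and FKBP11 of 0.04 (SE 0.31, edgeR adjusted p = 0.966). With 2 libraries of 8 and 13 cells in LG255, a p that misses the threshold does not show equal levels.

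**Figure D5:**
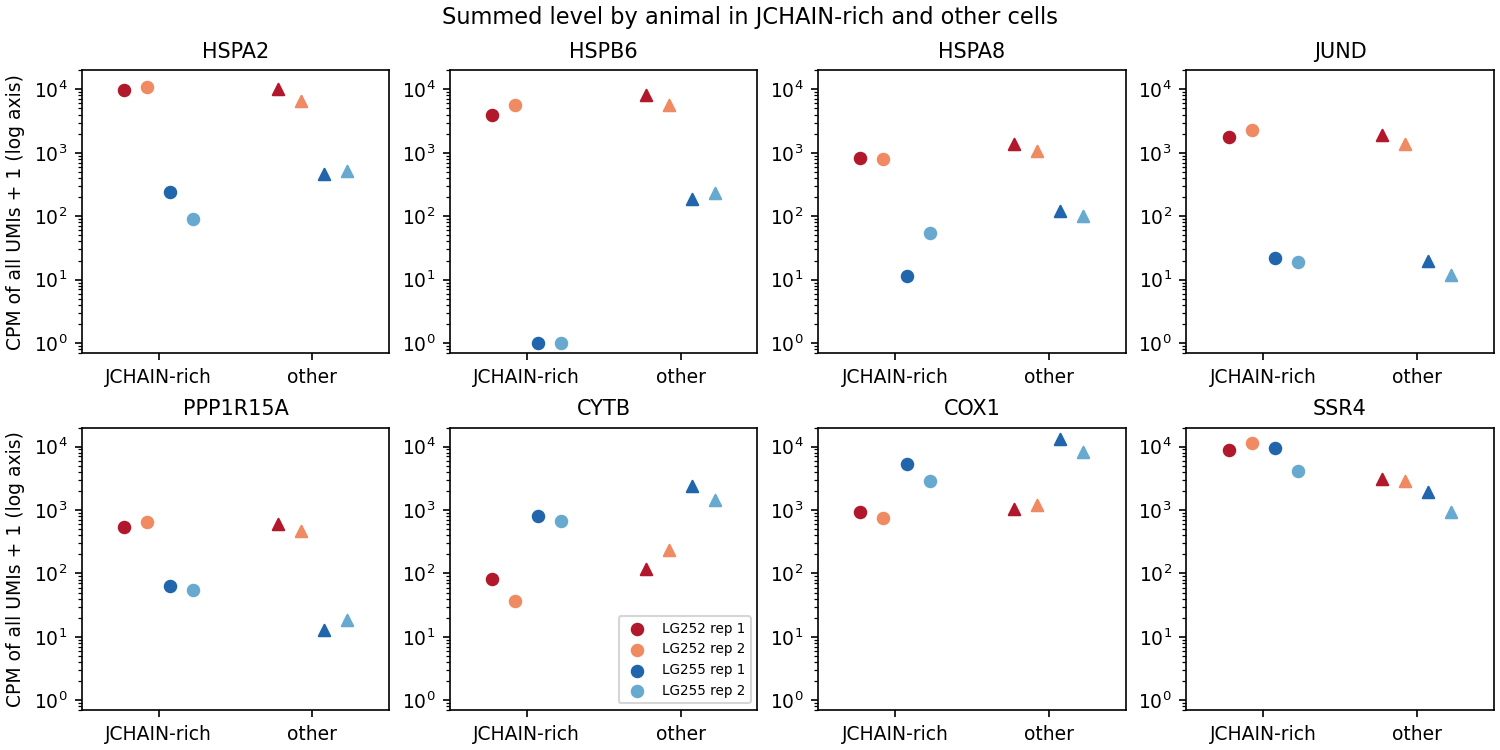
Summed level of 8 genes (CPM of all UMIs plus 1, log axis) in members and in other cells of each library. HSPA2, HSPB6, HSPA8, JUND and PPP1R15A are high in LG252 and CYTB and COX1 in LG255, in members and other cells alike, while SSR4 is higher in members than in other cells within each library.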

How the data were processed

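The deposited values are whole-number UMI counts per gene and cell barcode, which the authors made with Cell Ranger 7.1.0, per the file headers; the submitters' processing notes name version 2.1.0. The design text names the assembly MPM_Emac_v1.0. Annotation release and treatment of intronic reads are not given in the sources used here. Receptor biotypes and positions came from the RefSeq gene table, which held 23671 of 24025 features.

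Members, comparison cells and gene lists were chosen with earlier results of these data known. Counts were summed per library and class and tested with edgeR 4.0.16 (TMM, filterByExpr, quasi-likelihood, adjusted p under 0.05) in R 4.3.3, with library as a block in the comparisons with other and B-type cells, over classes of at least 10 cells. Between animals that minimum left 1 LG255 library, so 5 cells were used there. Residual degrees of freedom were 2, 1 and 2. The scripts were tested on simulated data. Doublets were called with Scrublet in scanpy 1.11.5 and kept. Genes of a selection rule stayed out of the tests. Named genes are the 12 with the lowest p in each direction that have a symbol, an adjusted p under 0.05, a log2 fold change of at least 1 in size and the same direction in every library used; 1 of them is not reported here. Alternatives included DESeq2 1.42.0, other cell minimums, thinning to 1000 UMIs and each library left out. The labels do not say whether equal replicate numbers pair libraries of the 2 animals, so they were not used as a block. The correlation of replicate deviations over 1248 genes was 0.0237. Its LG255 side rests on sums over 13 and 8 cells, so a low value cannot exclude a shared batch.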

Additional observations from a re-analysis of the deposited data

How the results depend on the processing

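Against other cells 1888 genes were called; the count was 1249 with DESeq2, 360 with thinning to 1000 UMIs (3593 genes tested), 1091 without the library block, and 613 to 1746 with 1 library left out, 900 without LG252 replicate 1 and 613 without LG252 replicate 2. With DESeq2 size factors 2160 were called, 477 of them higher. Against B-type cells the 1469 calls became 397 with DESeq2 (280 higher, 117 lower), 329 with thinning (200 higher, 129 lower) and 947 without the library block; leaving out a library left no residual degrees of freedom. Between animals the 53 calls became 120 without a filter on low counts (107 higher), 22 with thinning and 31 to 89 with 1 library left out: 31 without LG255 replicate 1 and 89 without LG255 replicate 2. With the replicate number as a block 86 were called. The labels do not say that equal numbers pair libraries, so the 86 calls are a count only. The difference in the share of members, 1.60 points, was 1.02 to 2.18 with 1 library left out, 1.84 with a JCHAIN minimum of 3 UMIs, 0.899 with a minimum of 10, and -61.8 against members plus B-type cells. Direction turned between animals for LOC129340997, which ran from -1.28 without LG255 replicate 2 to 3.17 without LG255 replicate 1; no gene named against other or B-type cells turned. The causes were not tested, beyond the fewer genes or cells of an alternative. LG255 values rest on 13 and 8 cells, which limits every statement between animals.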
